A study of Mus musculus with 6 samples.

Results

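DNA replication genes were followed in whole testes of newborn mice, across the steps from the marking of origins to the joining of Okazaki fragments. The group held 45 genes, chosen by gene symbol for their known roles, with earlier results of these data known, out of 22320 genes in the deposited table. All 45 had a row, and all 45 lay at or above the minimum level for testing, a mean log2 level of 1. Of these genes 16, or 35.6%, were called lower in the mutant testes and 0 higher, against 6.46% and 7.37% of all genes tested. The 16 included every subunit of the MCM helicase ring, the loading factor Cdc6, the polymerase gene Pole, the clamp gene Pcna and the transcription factor genes E2f1 and E2f2. None of the 6 origin recognition genes was called, a set too small for that count to stand apart from the shares of all genes. The count of 16 depended on how the spread between pools was estimated, and no member passed the authors' FDR.

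The mutant group, Arid4bSCKO, had the genotype Arid4b-/Flox; Amh-cre, and the control group Arid4b+/Flox; Amh-cre. Both groups therefore carried a floxed allele and Cre recombinase under the Amh promoter, which acts in Sertoli cells, which line the testis cords and support germ cells. The mutants also had a null allele in every cell, so the groups differed outside Sertoli cells as well. All mice were C57BL6/J and 129/SvEv hybrids at postnatal day 1.5, and each group was 3 pools of 4 testes. The labels do not say whether pools came from separate litters, so a p-value here measures only how these pools vary, which may be technical. ARID4B is a subunit of the Sin3 histone deacetylase complex and a relative of ARID4A, which binds the retinoblastoma protein. That protein holds back E2F factors, whose textbook targets include many genes of DNA replication.

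In the G1 phase the origin recognition complex sits on DNA and, with CDC6 and CDT1, loads the MCM ring, a step called licensing. At the start of S phase kinases, CDC45 and the GINS complex turn the ring into an active helicase, and polymerases, a sliding clamp and its loader copy the opened strands. Many of these genes are transcribed in late G1, so their messenger RNA is commonly read as a sign of cycling cells. In the newborn testis Sertoli cells divide, while most germ cells are still in a resting phase.

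Messenger RNA was read as the authors' mean per group of log2(normalized count + 1), and the table used here holds no value per pool. The depth, worked out from the worth of a single read, was about 17.5 M reads in an Arid4bSCKO library and 18.6 M in a control one. The least expressed member, E2f2, then rested on about 254 reads per control library. Differences below are the Arid4bSCKO mean less the control mean, in log2 units. Their 95% intervals were derived from the authors' p-values, taking 4 residual degrees of freedom. "Called" means an adjusted p below 0.05 in a moderated limma test over 19095 genes. Arid4b itself stood at 35.1% of control, with mean log2 levels of 8.68 and 10.19 and a difference of -1.51 (95% interval -1.82 to -1.21).

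The share of members called lower, 35.6%, stood beside 6.46% of all genes tested and 10.1% of the 9260 genes within the members' range of control levels. Higher calls made up 7.37% of all genes, against 0 of 45 members. The median difference of the members was -0.28, and that of all genes tested was -0.04. Of the 45 differences 41 were negative, or 91.1%, against 54.2% of all genes. The called members stood between 54.6% and 78.9% of control, so the falls were modest. The size of the count depended on how the spread between pools was estimated. When limma used neither robust fitting nor a trend with level, Cdc6 alone remained called lower, and 0.382% of all genes were called lower. No member passed the authors' deposited FDR, which 0.194% of the tested genes did in either direction. Before adjustment 18 members had a deposited p below 0.05 and a negative difference, as did 12.7% of all genes. Whole testes were read, and fewer cells of a type cannot be told apart from less RNA per cell.

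**Figure D1:**
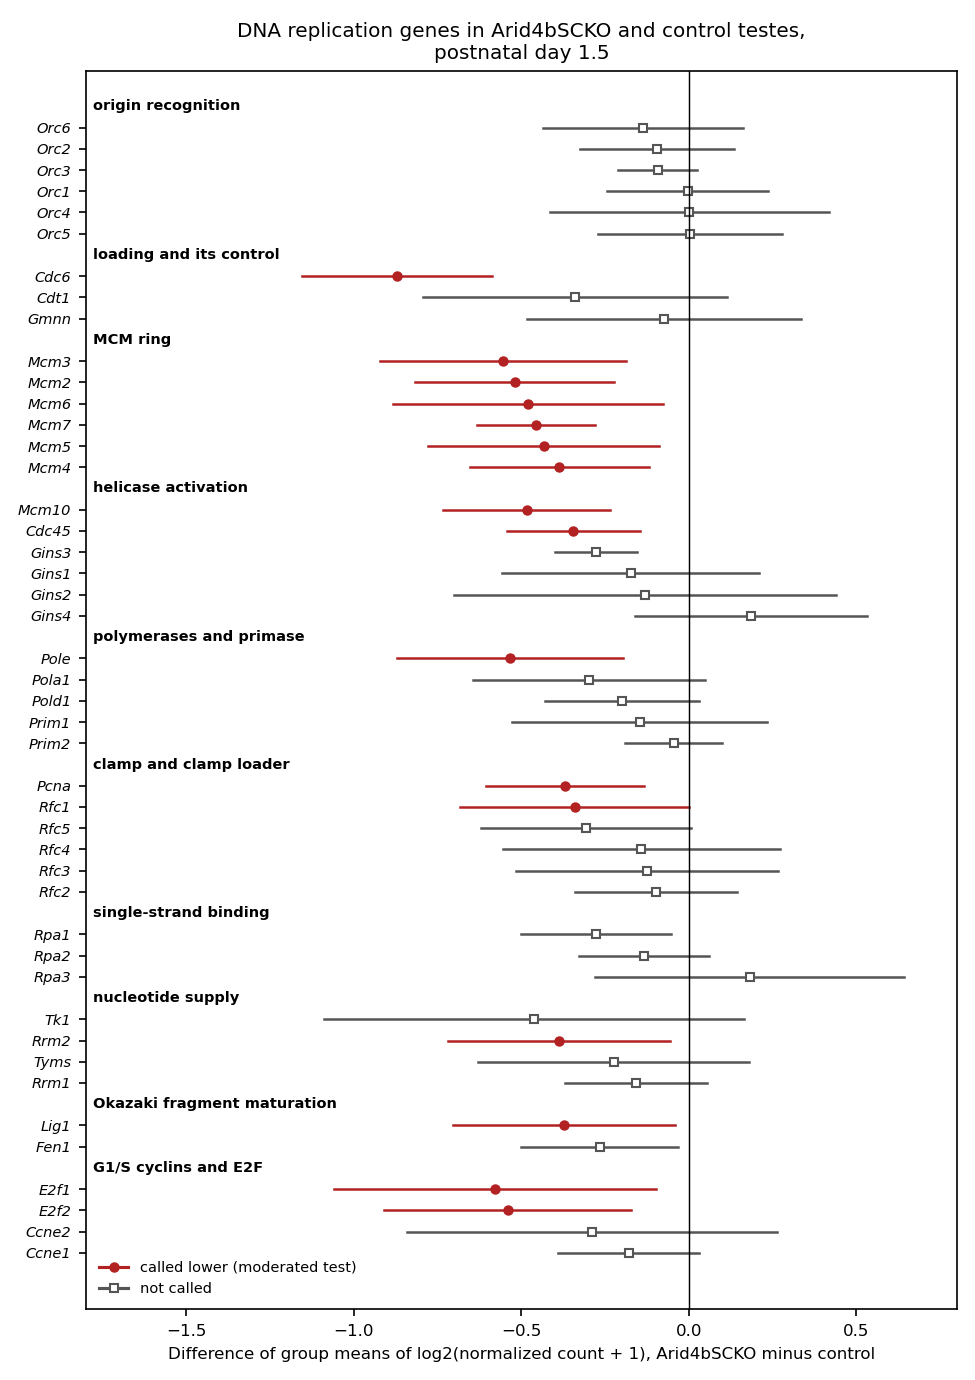
Difference of group means (Arid4bSCKO minus control, log2) for the 45 replication genes by role, with 95% intervals from the deposited p-value. Filled red circles are the 16 genes called lower and open grey squares the 29 not called. The 6 MCM ring genes lie between -0.56 and -0.39, and the 6 origin recognition genes between -0.14 and 0.00.

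The origin recognition complex, which marks the sites where replication can start, gave no called gene. At the shares of all genes called, 6.46% lower and 7.37% higher, no call among 6 genes would not stand out. The 6 differences of the complex had a median of -0.05. Orc1, the subunit whose level is known to follow the cell cycle, had means of 8.30 in Arid4bSCKO and 8.31 in control, a difference of 0.00 (95% interval -0.24 to 0.24). Orc4 and Orc5 also differed by 0.00, with intervals of -0.42 to 0.42 and -0.27 to 0.28. The most negative value of the complex was that of Orc6, at -0.14 (-0.44 to 0.16). Orc2 was at -0.09 (-0.32 to 0.13). Orc1 and Orc2 share 10.8% and 29.8% of their annotated exonic bases with a gene on the opposite strand, and the use of strand in counting is not given. Orc3 had the narrowest interval, -0.09 (-0.21 to 0.02), and the smallest deposited p of the complex, 0.0938. Its implied SD of 0.05 was the lowest of the members, and the interval was not moderated. The intervals exclude a fall of the size seen for Cdc6, the largest of the members (-0.87), in each of the 6 genes. Those of Orc4 and Orc6 hold the smallest fall of the MCM ring, that of Mcm4 (-0.39), and those of the other origin recognition genes do not. The value of Mcm4 has its own interval, -0.65 to -0.12, which overlaps that of each origin recognition gene. Whether the complex and the ring differed was not tested.

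Loading of the MCM ring needs CDC6, an ATPase, and CDT1, which geminin blocks once S phase has begun. Cdc6 (chromosome 11, 98907801 to 98923940, plus strand, mm10) fell from a mean of 9.51 in control to 8.64 in Arid4bSCKO, which is 54.6% of control. Its difference of -0.87 (-1.16 to -0.59) was the largest of the 45, and its adjusted p was 8.6e-04. Cdt1 was at -0.34 (-0.79 to 0.11) and was not called (adjusted p = 0.101). Gmnn, which encodes geminin, was at -0.08 (-0.48 to 0.33). Of the 3 loading genes only Cdc6 was thus called.

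All 6 genes of the MCM ring fell, and by similar amounts. The ring is a heterohexamer of related ATPases that unwinds DNA at the fork. Mcm3 fell most, from 12.05 to 11.50, a difference of -0.56 (-0.92 to -0.19). Mcm2 fell from 12.11 to 11.59 (-0.52, -0.82 to -0.22) and Mcm6 from 12.47 to 11.99 (-0.48, -0.88 to -0.08). These 3 genes stood at 68.0%, 69.7% and 71.7% of control. Mcm7 fell from 12.29 to 11.83, and its interval of -0.63 to -0.28 around -0.46 was the narrowest of the ring. Mcm5 fell from 12.35 to 11.91 (-0.43, -0.78 to -0.09), and Mcm4 fell least, from 11.85 to 11.47 (-0.39, -0.65 to -0.12). Adjusted p-values in the ring ran from 0.00463 for Mcm7 to 0.0178 for Mcm4 and Mcm5. The 6 intervals overlap, and differences between subunits were not tested, since no values per pool were used.

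Per kilobase of transcript, the ring genes were among the more abundant members. In control testes Mcm6 stood at 1945 normalized counts per kb, Mcm7 at 1688, Mcm5 at 1540, Mcm3 at 1403, Mcm2 at 1309 and Mcm4 at 1031. In Arid4bSCKO the same genes stood at 1394, 1229, 1140, 954, 913 and 788. The order of the 6 was the same in both groups. Orc1 was at 105 normalized counts per kb in both groups, and Cdc6 at 158 in control and 86.3 in Arid4bSCKO, so its messenger was scarcer per kilobase than that of each ring gene.

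**Figure D2:**
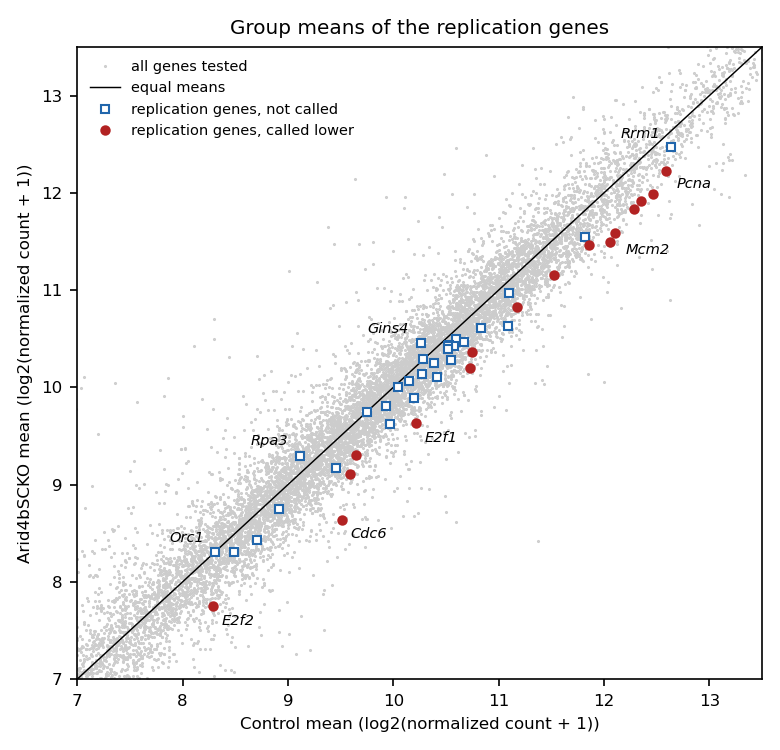
Mean log2(normalized count + 1) in Arid4bSCKO (vertical axis) against control (horizontal axis) for the 45 replication genes, over the tested genes within the plotted range in grey. Open blue squares are members not called, and the diagonal marks equal means. The genes called lower, filled red circles, lie below the diagonal across the range of levels, from E2f2 at 8.29 in control to Pcna at 12.59.

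The promoters of several of these genes hold the letters of E2F sites. Stretches are shown for genes called lower whose site lies before the start that RefSeq gives, where the stretch touches no annotated UTR. RefSeq windows (GRCm38.p6) from 250 bases before to 50 after a start were matched by symbol for 36 of the 45 members. The motifs TTTCCCGC and TTTGGCGC were searched on both strands. Their shorter cores, TTCCCGC and TTGGCGC, lie within them and were counted apart. Each stretch below is read 5′ to 3′ on the strand of its gene, with the motif in capitals and 30 bases on each side.
Cdc6, chr11:98907983-98908050, plus strand: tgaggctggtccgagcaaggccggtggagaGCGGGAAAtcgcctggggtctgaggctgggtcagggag
Mcm5, chr8:75109330-75109397, plus strand: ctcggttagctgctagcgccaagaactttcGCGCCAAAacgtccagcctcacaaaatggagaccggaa
Mcm6, chr1:128359715-128359845, minus strand: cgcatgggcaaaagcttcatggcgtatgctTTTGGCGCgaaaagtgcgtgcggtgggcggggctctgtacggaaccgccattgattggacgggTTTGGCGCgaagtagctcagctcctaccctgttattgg

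The sites of Cdc6 and Mcm5 end 131 and 142 bases before the RefSeq start, and those of Mcm6 at 103 and 40. GENCODE M21 starts Cdc6 farther upstream, and by its models the Cdc6 stretch lies in an intron after that start, while those of Mcm5 and Mcm6 lie outside the gene. The stretch around the site of Mcm7 touches a UTR by GENCODE, and the sites of Mcm3 and E2f2 do not lie wholly before the RefSeq start. Stretches of these 3 genes are therefore not printed. Either full motif was found in 12 of the 36 members with a window, or 33.3%, against 1.8% of all 27025 genes with a window. Among members called lower, 6 of 14 held a full motif, and among those not called 6 of 22 did, Orc3, Cdt1, Gins3, Pola1, Pold1 and Rfc3. Either core was found in 8 of 14 called members, 12 of 22 members not called and 7.79% of all genes. CCAAT, the letters of the NF-Y site, occurred in 11 of 14 called members, 12 of 22 not called and 41.1% of all genes. The motifs therefore occurred both in members that fell and in members that were not called, and these counts are a description of the letters only.

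Activation of the loaded ring involves MCM10, CDC45 and the 4 GINS subunits. Mcm10 fell from 9.59 to 9.10 (-0.48, -0.73 to -0.23) and Cdc45 from 9.65 to 9.30 (-0.35, -0.54 to -0.15). Cdc45 was not called when all differences were centred on the median of all genes (adjusted p = 0.0547). None of the GINS genes was called. Gins3 was at -0.28 with a narrow interval (-0.40 to -0.16) and a deposited p of 0.00317, but its adjusted p was 0.112. Its implied SD of 0.05 log2 units was among the lowest of the members, and the moderated test pulls such values toward the trend. Gins1 and Gins2 were at -0.17 (-0.56 to 0.21) and -0.13 (-0.70 to 0.44). Gins4 had the most positive difference of all members, 0.19 (-0.16 to 0.53). Gins2 shares 67.3% of its annotated exonic bases with Gse1 on the opposite strand, and the use of strand in counting is not given in the sources used here.

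Among the polymerases and primase, Pole, the catalytic subunit of the leading-strand polymerase, fell from 10.73 to 10.20 (-0.53, -0.87 to -0.20, adjusted p = 0.00758). It stood at 69.1% of control. Pola1, the polymerase that extends RNA primers, was at -0.30 (-0.65 to 0.05), and Pold1, the lagging-strand polymerase, at -0.20 (-0.43 to 0.03). The primase genes Prim1 and Prim2 were at -0.15 (-0.53 to 0.23) and -0.04 (-0.19 to 0.10). All 5 differences of this role were negative, and only that of Pole was called.

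The sliding clamp gene Pcna, the most abundant member per kilobase, fell from 12.59 to 12.22 (-0.37, -0.61 to -0.13, adjusted p = 0.018). It stood at 4065 normalized counts per kb in control and 3145 in Arid4bSCKO. Of the 5 clamp loader genes, Rfc1, the large subunit, was called at -0.34 (-0.68 to 0.00, adjusted p = 0.0491), at the edge of the threshold. Rfc1 was not called with the trend over transcript length removed (-0.23, adjusted p = 0.173). Rfc5 was at -0.31 (-0.62 to 0.01, adjusted p = 0.0737), and Rfc2, Rfc3 and Rfc4 lay between -0.14 and -0.10.

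The subunits of the single-strand binding protein RPA were not called. Rpa1 was at -0.28 (-0.50 to -0.05, adjusted p = 0.0541), just outside the threshold, Rpa2 at -0.13 (-0.33 to 0.06) and Rpa3 at 0.18 (-0.28 to 0.64). In nucleotide supply, Rrm2, the subunit of ribonucleotide reductase that is made in S phase, fell from 10.75 to 10.36 (-0.39, -0.72 to -0.06). Rrm2 was not called on the authors' ratio of group medians, where its value was -0.31 (adjusted p = 0.0662). Its partner Rrm1, one of the most abundant members, was at -0.16 (-0.37 to 0.05), and the thymidylate synthase gene Tyms at -0.22 (-0.63 to 0.18). Tk1, the S-phase thymidine kinase, had means of 11.09 and 10.63 and a difference of -0.46 (-1.09 to 0.16). Its implied SD of 0.28 was the highest of the members, and it was not called (adjusted p = 0.0905). On the authors' ratio of medians Tk1 was at -0.70 and was called (adjusted p = 0.0192). Adjusted p-values for the ratio of medians used the spread implied for the means, since no spread of the medians was available.

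Both genes of Okazaki fragment maturation were negative. The ligase gene Lig1 fell from 11.53 to 11.15 (-0.37, -0.70 to -0.04, adjusted p = 0.0313), a call lost with the trend over transcript length removed (-0.32, adjusted p = 0.0568). The flap endonuclease gene Fen1 was at -0.27 (-0.50 to -0.03, adjusted p = 0.077). Fen1 shares 78.8% of its annotated exonic bases with an antisense gene model. In all, 15 members share some exonic bases with a gene on the opposite strand, 8 members more than 10% of them.

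Among the regulators of S-phase entry, the E2F genes were called and the cyclin E genes were not. E2f1 fell from 10.22 to 9.64 (-0.58, -1.06 to -0.10, adjusted p = 0.0148), to 66.9% of control. E2f2 fell from 8.29 to 7.75 (-0.54, -0.91 to -0.17, adjusted p = 0.0289), to 68.7% of control, and was not called with the length trend removed (-0.43, adjusted p = 0.0703). Ccne1 and Ccne2, which encode the cyclins that activate CDK2 at the start of S phase, were at -0.18 (-0.39 to 0.03) and -0.29 (-0.84 to 0.26).

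Other genes of the pathway were read from a list of 62, none of them members, and all 62 were tested. Like the members, they were chosen with earlier results of these data known. The moderated test called 25 of them lower and 3 higher, 54 differences were negative and the median was -0.31. Over all genes tested the shares were 6.46% lower, 7.37% higher and 54.2% negative, against 40.3%, 4.84% and 87.1% of these 62. With neither robust fitting nor a trend with level, and likewise by the authors' FDR, 0 of the 62 were called in either direction, while 32 had a deposited p below 0.05 and a negative difference and 3 a positive one. Of the 14 genes of E2F and pocket protein control 8 were called lower. Rbl1, which encodes the pocket protein p107, fell by 0.61 (95% interval -0.89 to -0.33), Tfdp1, the partner subunit of E2F factors, fell by 0.30 (-0.45 to -0.16) and Cdk2 fell by 0.44 (-0.71 to -0.17). The atypical E2F genes E2f7 and E2f8 were at -0.69 and -0.48, both called. E2f8 lost its call on the ratio of group medians (-0.32, adjusted p = 0.133) and with the length trend removed (-0.41, adjusted p = 0.0734). Rb1 itself was at 0.22 (-0.35 to 0.79) and E2f4, a factor of resting cells, at 0.01 (-0.22 to 0.25).

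Several genes of firing and of the fork were called. Ticrr, which encodes the firing factor treslin, fell by 0.73 (-1.11 to -0.34), the most of the 62, and Topbp1 fell by 0.37, a call lost with the length trend removed (-0.25, adjusted p = 0.122). Wdhd1, a fork adaptor, was at -0.32 and just outside the threshold (adjusted p = 0.0504). The fork protection genes Timeless and Clspn fell by 0.54 and 0.52, and Tipin was at -0.30 (-0.65 to 0.05). Chaf1a, Chaf1b and Uhrf1, which act on chromatin behind the fork, fell by 0.55, 0.38 and 0.51. Dtl, which directs the breakdown of CDT1, fell by 0.66 (-1.07 to -0.25) and Skp2 by 0.34 (-0.65 to -0.03). Skp2 was not called with the length trend removed (-0.29, adjusted p = 0.082). Cul4a was at -0.15 (-0.30 to 0.00) and not called.

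Enzymes of nucleotide supply outside the 45 genes had 5 of 9 called lower. Shmt1 fell by 0.49 (-0.75 to -0.23) and Dck by 0.38 (-0.62 to -0.15). Among primer removal and topology genes, Dna2, a nuclease and helicase, fell by 0.56 (-0.79 to -0.32), and the topoisomerase gene Top2a was at -0.39 (-0.82 to 0.04, adjusted p = 0.0504). The 3 genes called higher were accessory subunits of enzymes in the same pathway. Pold4 was at 0.56 (0.32 to 0.80), Pole3 at 0.37 (0.23 to 0.52) and Rnaseh2c at 0.50 (0.10 to 0.90). Among the other polymerase and clamp loader subunits these were 2 higher beside 1 lower, Atad5, at -0.43 (-0.72 to -0.14), while Pold3 was at -0.24 (-0.40 to -0.09) and not called. Rnaseh2c and Atad5 were not called with the length trend removed (adjusted p = 0.0696 and 0.101), nor Pole3 and Rnaseh2c with an equal worth of a read (adjusted p = 0.103 and 0.0668).

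Genes of mitosis were read beside those of replication. Of 16 mitotic genes 1 was called lower, or 6.25%, beside 6.46% of all genes tested and 10.1% of genes within the members' range of control levels. Their median difference was -0.10, and 12 values, or 75%, were negative, against 54.2% of all genes. The median implied SD was 0.18 for the mitotic genes and 0.15 for the members, so a fall of the same size was less readily called. The called gene was Aurkb, the chromosomal passenger kinase, at -0.41 (-0.87 to 0.04, adjusted p = 0.0448), which was not called after centring on the median of all genes (adjusted p = 0.0623). Mki67, a marker of cycling cells, was at -0.36 (-0.81 to 0.09) and the kinesin gene Kif11 at -0.28 (-0.58 to 0.03), neither called. The difference between the lists was not tested.

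**Figure D3:**
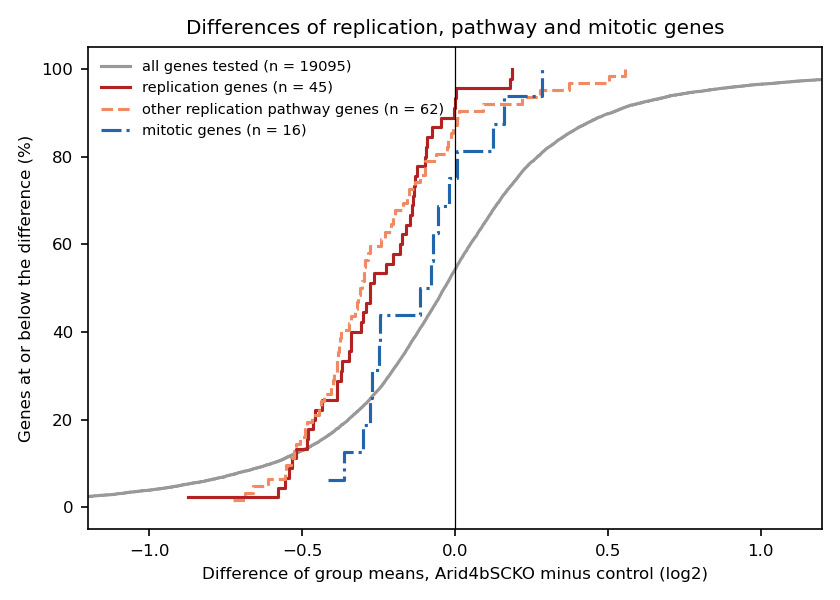
Share of genes (vertical axis, percent) at or below each difference of group means (horizontal axis, log2) for the 45 replication genes, 62 other pathway genes, 16 mitotic genes and all 19095 genes tested. The medians are -0.28, -0.31, -0.10 and -0.04.

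Markers of cell types moved in the same comparison. Of 12 Sertoli cell markers 7 were called lower and 1 higher, where 6.46% and 7.37% of all genes tested were. Their summed normalized counts in Arid4bSCKO were 54.8% of control, a sum weighted to abundant genes such as Amh (32.5% of control, not called). Of the 12 differences 10 were negative, and 2 were positive, those of Sox9 and Cldn11, at 111% and 193% of control. Of 10 germ cell markers 2 were called lower, and the sum of the 10 was 75.2% of control. Their differences were negative for 8 and positive for 2, Pou5f1 and Nanos3, at 105% and 149% of control. All 10 macrophage markers were called higher, with a sum of 225% of control. Of 6 fetal Leydig cell markers and 6 endothelial markers 0 were called, with sums of 97.5% and 84.2%, and of 6 peritubular and stromal markers 1 was called higher, with a sum of 107%. No erythroid marker was called among the 5 tested, with a sum of 152%. No marker tested was listed at 0 in either group. By comparison the summed level of the 45 replication genes was 80.8% of control. The part of these shifts in the replication values was not tested.

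Transcript length moved with the difference as well. Over all 17778 genes with a length, the rank correlation between difference and length was -0.21, and over the 45 members it was -0.37, given as a description. Called members had a median length of 3272 bases and the others 2189. With a trend over length removed, 13 members were called lower, against 4.48% of all genes, and the median of the members was -0.23. Rfc1, Lig1 and E2f2 were the 3 that lost their call, and all 6 MCM ring genes, Cdc6, Mcm10, Cdc45, Pole, Pcna, Rrm2 and E2f1 kept it.

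The authors' log2 ratio of group medians gave a second reading of each gene. It is less affected than the mean when a single pool stands apart. The 16 called members stayed negative in it, from -0.90 for Cdc6 to -0.31 for Rrm2. These genes were picked for a low mean in the same pools, so a negative sign was likely beforehand and is no separate support. Mean and median differed in sign only for Orc1, and the largest gap between them among the 45 was 0.24 log2 units, for Tk1.

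**Figure D4:**
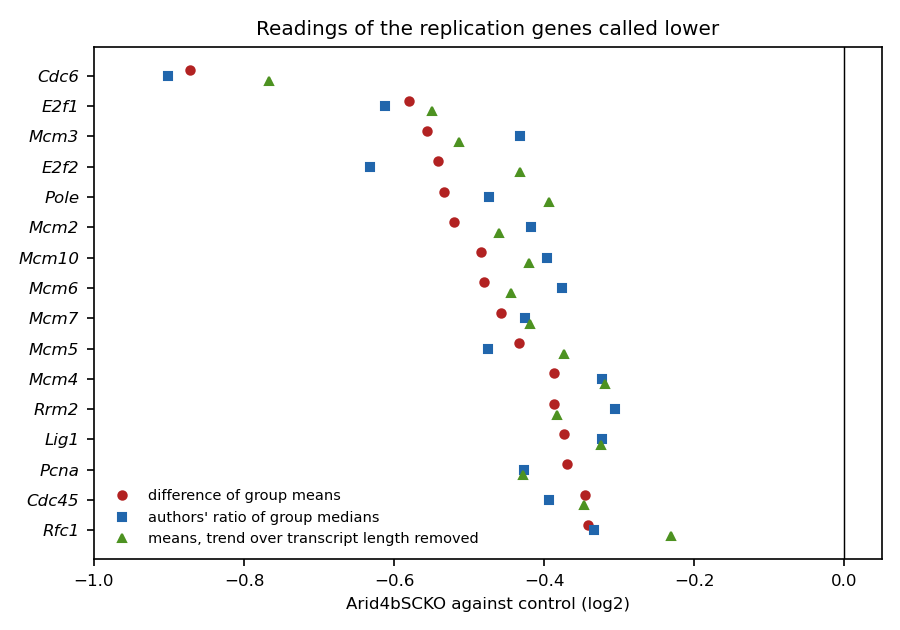
Log2 value of Arid4bSCKO against control (horizontal axis) for the 16 members called lower, as the difference of group means (circles), the authors' ratio of group medians (squares) and the difference with the trend over transcript length removed (triangles). All 3 readings are negative for each gene, and all come from the same pools that gave the calls.

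The scaling of the libraries bore on the count. A read carried 9.55% more weight in the Arid4bSCKO libraries than in control. With an equal worth of a read, an alternative chosen after the table was seen, the median of all genes moved to -0.16 and 27 members were called lower, against 16.4% of all genes. Over all genes the calls then split into 3126 lower and 916 higher, where they had been 1233 and 1408. The median of the members then stood at -0.41. Centred on the median of all genes in the authors' scaling, it stood at -0.24. An equal worth of a read leaves the lower depth of the Arid4bSCKO libraries uncorrected, 17.5 M against 18.6 M reads. With equal summed normalized counts instead, 19 members were called lower, against 8.93% of all genes.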

How the data were processed

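Poly(A) RNA of 6 pools of whole testes was sequenced as 2×50 bases with a stranded kit, per the labels' protocols. Reads were aligned with STAR 2.4 to mm10, per the submitters' processing notes. How reads were counted and normalized, whether strand was used, and which annotation release served are not given in those notes or the labels. The deposited table gives the authors' group means of log2(normalized count + 1), a log2 ratio of group medians, a p-value and an FDR (q-value) per gene. It was used as deposited. Standard errors and SDs were worked out from the authors' deposited p-values with 4 degrees of freedom. Variances were moderated with limma 3.58.1 in R 4.3.3 (squeezeVar, trend on level, robust) over genes with a mean log2 level of at least 1, and p-values were adjusted by Benjamini-Hochberg. The procedure was also run on simulated counts, a run that did not compare fits with and without the trend on level and robust fitting. Gene positions and lengths were from GENCODE M21, and promoters from RefSeq. Members and gene lists were chosen with earlier results of these data known. Members were named where called, or where smallest in p-value, lowest or highest in difference within a role, and others were added to complete each role. Other pathway and mitotic genes were named by the 3 smallest p-values within each list. One gene that this rule names is not reported here. Atad5, Rb1, E2f4, E2f7 and E2f8 were chosen after their values were seen. Alternatives covered the moderation, the filter on level, centring, the ratio of medians, library scaling and the authors' FDR. The ratio of medians was set against the SD worked out for the means, so its adjusted p-values are approximate.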

Additional observations from a re-analysis of the deposited data

How the results depend on the processing

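No paired analysis was possible because the table used here holds group means and no values per pool, and for the same reason no pool could be left out in turn. Over 11 alternatives and 81 named genes, 721 of 891 values stayed on the same side of the threshold. Of the rest, 128 lost a call and 42 gained one. With a call in either fit 0 changed sign, but sign changes without a call were counted as the same. Orc1, for example, moved from -0.0034 to 0.0317 when centred on the median of all genes. Some alternatives kept the difference and could not change its sign. The 721 include genes not called in the main fit, which had no call to lose. Without the trend on level and robust fitting, limma called 1 member and 0 other pathway genes lower and 0 pathway genes higher, and over all genes 73 lower and 164 higher. By the authors' FDR these counts were 0, 0 and 0, and 11 and 26, while before adjustment the authors' p-value gave 18 members lower and 0 higher, and 2426 and 2182 genes overall. With an equal worth of a read, chosen after the table was seen, 27 members and 42 pathway genes were called lower and 1 pathway gene higher, and 3126 and 916 genes overall. That alternative leaves the difference in depth uncorrected, and equal summed normalized counts gave 19 members lower. With the trend over transcript length removed, 796 genes were called lower overall. The median of the members ran from -0.41 to -0.23. The calls therefore depend on the trend with level and robust fitting, which were dropped together and not tried apart. The cause of the shift with library scaling was not tested, and 3 pools a group limit precision.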
